A study of Rattus norvegicus with 150 samples.

Results

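Muscle that had carried tantalum (Ta) cylinders for 6 months was set against muscle that had carried them for 1 month, using every library of these groups: 8 at 6 months and 7 at 1 month, or 15 of the 150 libraries in the series. Tantalum was the sham metal of the study, so both groups underwent the surgery and both held foreign material. Male Sprague-Dawley rats, bought at about 30 days of age and kept at least 2 weeks before surgery, received 4 cylinders each, 2 in the gastrocnemius of each limb. The cylinders were 1 mm across and 2 mm long, and total RNA of the gastrocnemius was sequenced. Each time was a cohort of its own. The older cohort was therefore also longer past surgery, and age, time since surgery and cohort cannot be told apart. Because no label links a library to its animal, p-values describe how far libraries differ, which may be partly technical.

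The gastrocnemius is the large calf muscle, built of multinucleate fibres that in rats are mostly fast. Tantalum is valued in implants because it corrodes very little, yet any solid left in tissue is met by inflammatory cells and becomes walled off by collagen that fibroblasts deposit. Young rats keep growing after weaning, and their muscle gains mass mainly by enlarging its fibres. These points are background. The count table lists genes by Ensembl identifier, and the reference table used named none of its 32545 identifiers. No gene is therefore assigned a function, the labelled tissue was not checked against marker genes, and lists of pathways and cell types could not be counted.

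Total counts in the 15 libraries ran from 13278341 to 18517974, with a median of 15989906. At 6 months 2 libraries stood apart. Replicates 4 and 7 had scaling (TMM) factors of 0.597 and 0.694, against 0.939 to 1.16 in the other 6 libraries of 6 months and 1.01 to 1.13 at 1 month. Their 10 most abundant genes took 42.9% and 38.2% of all counts, compared with 26.4% to 31.1% in the other 6 libraries and 24.8% to 31.2% at 1 month. Between 11038 and 11553 genes reached 1 CPM (counts of a gene scaled to a common library size) at 6 months, and between 11361 and 11805 at 1 month. The median correlation of a library's log2 CPM with those of its group was 0.922 to 0.964 at 6 months and 0.938 to 0.967 at 1 month.

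Many genes differed between the cohorts, mostly by modest amounts and in both directions. Of 12247 genes tested, 1205 passed an adjusted p of 0.05 in edgeR's quasi-likelihood test, a background share of 9.84%. Among them 503 were higher at 6 months (4.11%) and 702 were lower (5.73%). The median log2 fold change was 0.84 for the genes that rose and -0.94 for those that fell, against 0.0016 over all genes tested. Changes over 2-fold were reached by 172 genes that rose and 301 that fell. Past 4-fold 30 genes were higher and 8 lower. DESeq2 on the same genes called 1079 higher and 1050 lower, so which direction held more genes depended on the test.

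**Figure D1:**
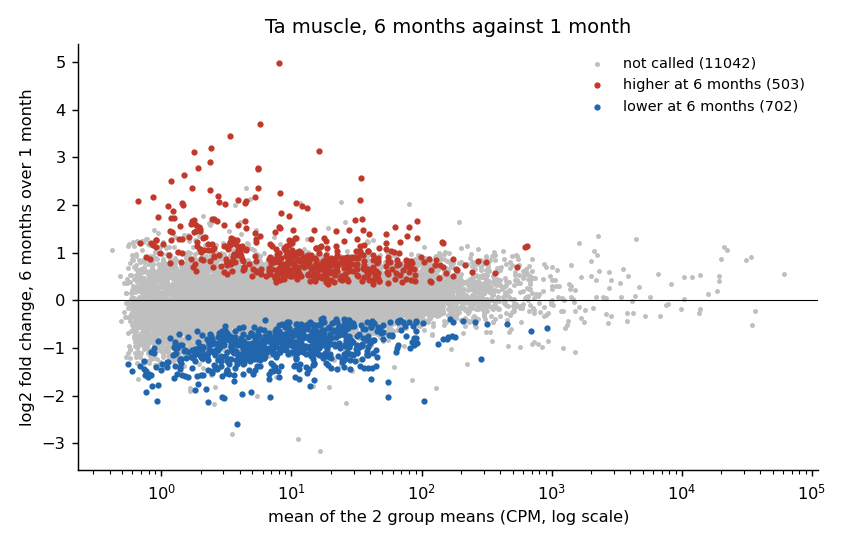
Log2 fold change of 6 months over 1 month in Ta muscle (y axis) against the mean of both group means in CPM (x axis, log scale), with 1 point per gene tested. The 503 genes called higher are red, the 702 called lower are blue and the rest grey; no gene on the far right, past 1000 CPM, is coloured.

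How often a gene was called depended on its level. In the class of 1 to 10 CPM, 205 of 5081 genes rose and 359 fell. Between 10 and 100 CPM the numbers were closer, with 260 of 5461 genes higher and 306 lower. From 100 to 1000 CPM 26 of 912 genes rose and 16 fell. None of the 89 genes at or over 1000 CPM passed, although their median log2 fold change was 0.13. Under 1 CPM 12 of 704 genes rose and 21 fell. The 10 most abundant places of the 15 libraries were filled by 17 genes, of which 1 was in every library's list. The gene that led 11 libraries had a log2 fold change of 0.56 and an edgeR adjusted p of 0.238.

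Separation of single libraries was less common than the count of calls. For 71 of the 503 genes that rose (14.1%), every library of 6 months lay above every library of 1 month. The same held in the downward direction for 100 of the 702 genes that fell (14.2%). Over all genes tested such separation occurred upward for 76 genes (0.621%) and downward for 103 genes (0.841%). The remaining called genes overlapped between the groups in at least 1 library.

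Averaged over the 702 genes that fell, log2 CPM was 2.07 at the lowest, 2.60 at the median and 3.05 at the highest library of 6 months, against 3.11, 3.52 and 4.15 at 1 month. For the 503 genes that rose the same values were 3.50, 3.92 and 4.32 at 6 months, and 2.43, 3.04 and 3.22 at 1 month. The groups do not overlap on either measure, which the choice of the genes fixes, and no test is given. Within 6 months replicate 5 lay nearest to the younger cohort on both lists, at 3.05 and 3.50. Replicate 4 lay farthest, at 2.07 and 4.32, but its place for the genes that rose depended on its scaling factor of 0.597. As a share of all counts those genes took 1.56% in replicate 4, against 1.81% to 2.01% in replicates 1, 2, 3 and 8. Replicates 5, 6 and 7 had 1.48% to 1.62%. The genes that fell took 0.503% in replicate 4, the lowest share at 6 months. Within 1 month replicate 8 lay farthest from the older cohort, at 4.15 and 2.43. The genes that fell took 0.503% to 1.64% of all counts at 6 months and 1.41% to 2.93% at 1 month. Those that rose took 1.48% to 2.01% at 6 months and 0.752% to 1.34% at 1 month. In bulk muscle, fewer cells of a type and less RNA per cell cannot be told apart.

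The number of calls moved with single libraries. The called genes kept their direction, which their choice in these same libraries largely fixes. Fits with 1 library left out gave 569 to 2238 calls. The count changed by over 1.5 times without 1-month replicate 1 (569 calls), 2 (704), 4 (741) or 8 (601), and without 6-month replicate 3 (718), 5 (2238) or 7 (761). Without 6-month replicates 4 and 7 together, 653 genes were called, 303 higher and 350 lower, and 557 of these were among the 1205. Scaling by library totals without TMM factors left 440 calls, 114 higher and 326 lower, and shifted the median log2 fold change of all genes to -0.15.

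Libraries of 3 and 12 months, which took no part in calling the genes, show where these genes stood in the other cohorts. In Ta muscle log2 CPM averaged over the 702 genes that fell was 3.51 ± 0.34 at 1 month (SD, n = 7). It was 3.48 ± 0.36 at 3 months, then 2.56 ± 0.28 at 6 months, then 2.76 ± 0.18 at 12 months (SD over 8 libraries each). That of the 503 genes that rose was 3.00 ± 0.27, 2.92 ± 0.43, 3.93 ± 0.24 and 3.64 ± 0.14 at the same times. On average both lists thus stood near their 1-month level at 3 months and near their 6-month level at 12 months. Within 3 months the spread was wide and followed the replicate number. The genes that rose had 2.86 to 3.46 in replicates 1 to 4 and 2.31 to 2.68 in replicates 5 to 8. Those that fell had 2.74 to 3.55 and 3.58 to 3.86 in the same order. The 10 most abundant genes took 22.3% to 28.3% and 31.9% to 38.6% of counts. The 3-month means average over both sets, and the cause of this split was not tested. Replicate 1 had 2.74 for the genes that fell and 3.46 for those that rose. These values were inside the range of the 6-month libraries for the first list and just below it for the second.

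**Figure D2:**
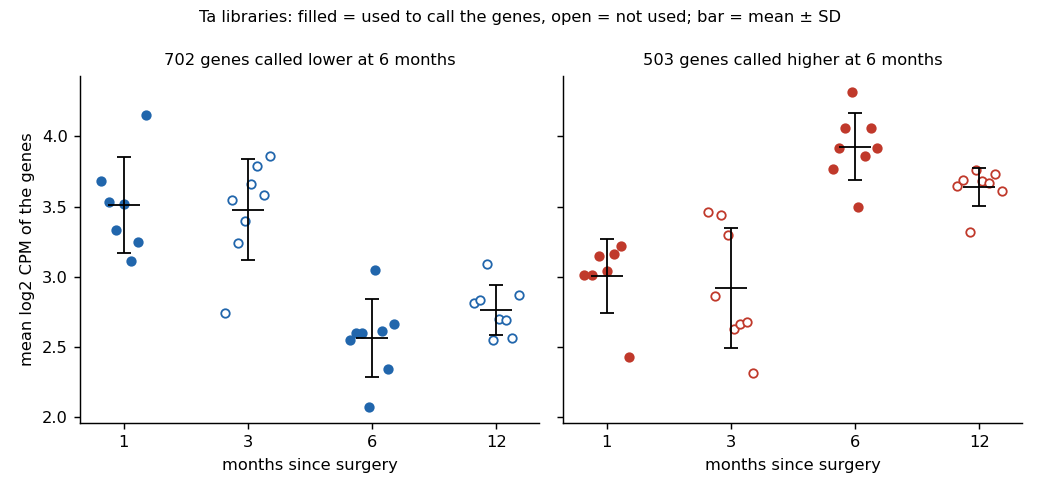
Mean log2 CPM of the genes called lower (left) and higher (right) at 6 months in each Ta library, by months since surgery; bars give mean ± SD, and open points are libraries not used to call the genes. On the left the 3-month libraries, except replicate 1, sit with those of 1 month. On the right 3-month replicates 1, 3 and 4 lie above all 1-month libraries and replicate 8 lies below them. The 12-month libraries run from 2.55 to 3.09 on the left and from 3.32 to 3.76 on the right. All but replicate 3 lie within the range of 6 months. At 3.09 and 3.32, replicate 3 lies between the libraries of 1 month and those of 6 months.

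Gene by gene the picture of the means was alike. At 3 months the mean level of 646 of the 702 falling genes (92%), in log2 CPM, lay nearer to the 1-month mean, as did 470 of the 503 genes that rose (93.4%). Many were past that mean, opposite to the called change: 362 of the falling genes (51.6%) and 317 of the rising genes (63%). By 12 months 593 of the genes that fell (84.5%) and 391 of those that rose (77.7%) lay nearer to the 6-month mean. Leaving out 6-month replicates 4 and 7 gave 637 (90.7%) and 431 (85.7%) at 12 months. No gene-wise test was made here, because the 1-month and 6-month libraries that define both ends also chose the genes.

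The genes that rose most were split at 12 months. Among the 30 genes that rose over 4-fold, 17 (56.7%) lay nearer to the 1-month mean at 12 months, and 7 of these were past it. The corresponding count was 37 of 142 genes (26.1%) for rises of 2-fold to 4-fold and 58 of 331 (17.5%) for rises under 2-fold. Genes that fell did not show this order: 0 of 8 past 4-fold, 38 of 293 (13%) between 2-fold and 4-fold, and 71 of 401 (17.7%) under 2-fold. These classes were drawn after the values were seen and are a description.

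Individual genes are shown for the largest change and the smallest p in each direction. ENSRNOG00000004635 had the largest rise among genes that met the rule for naming. Its lowest, median and highest level was 0.0622, 6.97 and 28.8 CPM at 6 months, against 0.506, 0.671 and 1.52 CPM at 1 month. All but 1 of the 8 libraries of 6 months lay above every library of 1 month, while replicate 1, with a single count, lay below all of them. The log2 fold change was 3.70 ± 0.75 (SE, edgeR adjusted p = 0.0103). In limma voom with sample quality weights the gene had 2.47 and an adjusted p of 0.158.

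The rise of ENSRNOG00000004635 was not present at the other times. Its mean was 0.834 ± 0.378 CPM at 1 month (SD, n = 7) and 0.627 ± 0.273 CPM at 3 months. It was 10.9 ± 10.5 CPM at 6 months, then 0.28 ± 0.451 CPM at 12 months (SD over 8 libraries each). At 12 months 3 libraries held no read of it. It is one of the genes over 4-fold that were past their 1-month level by then. A still larger fitted rise, 4.97 on the log2 scale, belonged to a gene that missed the rule, since only 4 of its 8 libraries of 6 months exceeded the 1-month median.

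ENSRNOG00000022637, the rise with the smallest p among genes over 20 CPM, changed less but in every library. It had 17.6, 26.3 and 39.6 CPM as lowest, median and highest at 6 months, and 6.54, 10.9 and 15.3 CPM at 1 month. The groups did not overlap. The log2 fold change was 1.26 ± 0.19 (SE, edgeR adjusted p = 0.00525). It averaged 14.7 ± 7.76 CPM at 3 months, with a median of 11.1 CPM near that of 1 month, and 26.1 ± 5.82 CPM at 12 months, near its 6-month level (SD over 8 libraries each).

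ENSRNOG00000005574 had the largest fall. Its lowest, median and highest level was 0.29, 0.742 and 2.33 CPM at 6 months, against 1.48, 5.92 and 14 CPM at 1 month. The groups overlapped, because 6-month replicates 5, 6 and 7 exceeded the lowest library of 1 month. The log2 fold change was -2.60 ± 0.48 (SE, edgeR adjusted p = 0.00797). At 3 months the mean was 3.82 ± 3.76 CPM and at 12 months 1 ± 0.708 CPM (SD over 8 libraries each), so the low level was also seen in the oldest cohort.

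The fall with the smallest p among genes over 20 CPM was that of ENSRNOG00000002180. It had 12, 17.5 and 27.8 CPM as lowest, median and highest at 6 months, and 35.8, 41.2 and 66.4 CPM at 1 month, without overlap. The log2 fold change was -1.38 ± 0.20 (SE, edgeR adjusted p = 0.00525). At 3 months it averaged 36.8 ± 14.2 CPM and at 12 months 23.6 ± 11.8 CPM (SD over 8 libraries each). The libraries of 12 months spread over both levels.

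**Figure D3:**
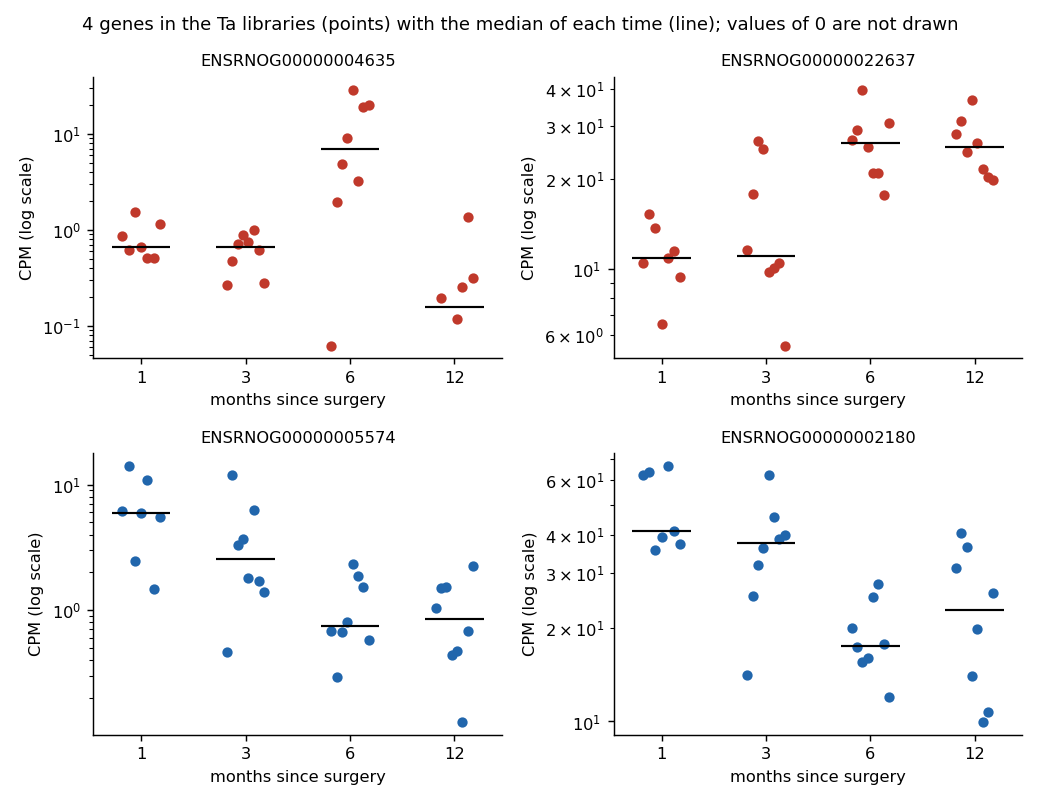
Levels of 4 genes in each Ta library in CPM (log scale) by months since surgery, with the median of each time as a line; red genes were called higher and blue genes lower at 6 months, and the 3 libraries of 12 months at 0 for ENSRNOG00000004635 are not drawn. The 6-month and 1-month points separate fully for ENSRNOG00000022637 and ENSRNOG00000002180 and overlap for the other 2 genes.

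The same interval was read in muscle with nickel (Ni), cobalt (Co), depleted uranium (DU) and a metal whose label is P, whose libraries are separate from those of Ta. Lead (Pb) is among the sequenced metals in the study's design, and P is taken to be lead. Each metal had 8 libraries per time, except 7 for Co at 6 months. For 6 months against 1 month edgeR called 454 of 12112 genes with Ni (3.75%), 1386 of 12336 with Co (11.2%), 1350 of 12270 with P (11%) and 124 of 12364 with DU (1%). Lower at 6 months were 256 genes with Ni (2.11%), 851 with Co (6.9%), 789 with P (6.43%) and 60 with DU (0.485%). Higher at 6 months were 198 genes with Ni (1.63%), 535 with Co (4.34%), 561 with P (4.57%) and 64 with DU (0.518%).

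Genes that fell in Ta muscle mostly had lower levels at 6 months around the other metals too. Their log2 fold change was below 0 for 657 of the 695 tested with Ni (94.5%), 662 of 698 with Co (94.8%), 691 of 700 with P (98.7%) and 655 of 700 with DU (93.6%). Over all genes the share below 0 was 58.1% with Ni, 49.7% with Co, 47.8% with P and 49.8% with DU. The median change of these genes was -0.94 with Ta, against -0.38 with Ni, -0.74 with Co, -0.51 with P and -0.33 with DU. Part of a larger median in Ta is built in, since the genes were chosen there. Called lower were 78 of them with Ni (11.2%), 210 with Co (30.1%), 358 with P (51.1%) and 29 with DU (4.14%), and none was called higher.

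Genes that rose in Ta muscle were mostly higher at 6 months around the other metals. Their change was above 0 for 383 of 500 with Ni (76.6%), 466 of 494 with Co (94.3%), 475 of 499 with P (95.2%) and 454 of 501 with DU (90.6%). Over all genes the share above 0 was 41.9% with Ni, 50.3% with Co, 52.2% with P and 50.2% with DU. Called higher were 61 with Ni (12.2%), 214 with Co (43.3%), 171 with P (34.3%) and 25 with DU (4.99%), while 1 was called lower, with Co. The median change was 0.20 with Ni, 0.73 with Co, 0.38 with P and 0.22 with DU. Across genes, which are not independent replicates, Pearson's r with the Ta change was 0.31 for Ni (12016 genes), 0.57 for Co (12072), 0.62 for P (12094) and 0.48 for DU. Spearman's rho was 0.24, 0.68, 0.63 and 0.47 in the same order, so whether Co or P came closest depended on the measure.

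**Figure D4:**
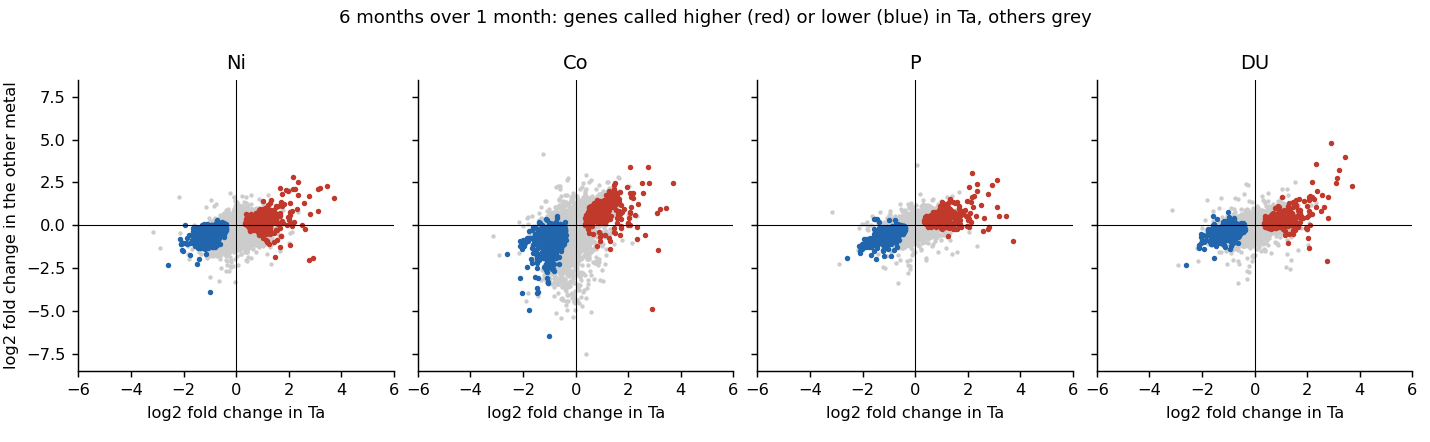
Log2 fold change of 6 months over 1 month with each other metal (y axis) against that in Ta muscle (x axis), with 1 point per gene. Genes called higher in Ta (red) lie mostly above 0 and genes called lower (blue) mostly below 0 in all 4 panels.

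Shared calls are best read from both sides. Of the genes called lower with a metal, 30.5% for Ni, 24.7% for Co, 45.4% for P and 48.3% for DU were also called lower in Ta. For genes called higher the shares were 30.8%, 40%, 30.5% and 39.1% in the same order. Of all genes tested in Ta, 5.73% were called lower there and 4.11% higher. Of the 702 genes that fell in Ta, 438 (62.4%) were called lower with at least 1 other metal and 10 with all 4, against 1437 (11.7%) and 11 of all 12247 genes tested in Ta. Of the 503 that rose, 300 (59.6%) were called higher with at least 1 and 6 with all 4, against 1031 (8.42%) and 7 of all genes. In sign alone, 585 of the falls (83.3%) and 332 of the rises (66%) had the direction of Ta with all 4 metals. Of all genes tested in Ta, 19.4% were below 0 and 17.4% above 0 with all 4.

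These counts rest on the calls in each metal, which depended on libraries. For Co, leaving out 1-month replicate 1, 2 or 3 gave 29, 898 or 469 calls, and leaving out 6-month replicate 4, 5, 6 or 7 gave 5, 605, 29 or 674. For Ni, leaving out 1-month replicate 1 or 5 gave 280 or 287 calls, and leaving out 6-month replicate 1, 2, 4, 6 or 8 gave 235, 251, 182, 225 or 242. For Co at 1 month, replicates 1 and 3 had scaling factors of 1.41 and 1.68, against 0.905 to 1.16 in the others. Their median correlations to the group were 0.882 and 0.831. Co at 6 months had 1 library, replicate 1, with a scaling factor of 0.435, and leaving it out gave 1653 calls. Without it 647 of 699 Ta falls (92.6%) and 456 of 498 Ta rises (91.6%) had the direction of Ta with Co. For Ni at 1 month, replicates 3 and 8 had scaling factors of 0.736 and 0.747, against 0.9 to 1.26 in the others. Their median correlations to the group were 0.907 and 0.896, against 0.944 to 0.954. Leaving out 1 of them gave 342 or 489 calls. Replicate 8 of DU at 6 months had a factor of 0.798, against 1.03 to 1.11 in the others. The shares with the direction of Ta were not computed without these Ni and DU libraries.

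Single genes followed the Ta pattern unevenly. ENSRNOG00000005574 was called lower with Ni (log2 fold change -2.30, edgeR adjusted p = 0.0027), Co (-1.66, adjusted p = 0.0425) and P (-1.90, adjusted p = 0.00224), and had -2.35 with DU (adjusted p = 0.0521). ENSRNOG00000022637 was called higher with Ni (0.87, edgeR adjusted p = 0.0342), Co (1.67, adjusted p = 0.023) and P (0.95, adjusted p = 0.00196), and had 0.65 with DU (adjusted p = 0.0684). ENSRNOG00000002180 passed with no other metal: it had -0.38 with Ni, -0.53 with Co, -0.15 with P and -0.36 with DU. ENSRNOG00000004635 also passed with none, and its values were 1.61 with Ni, 2.48 with Co, -0.90 with P and 2.31 with DU.

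Whether the 6 against 1 month change in Ta differed from the mean change of the other 4 metals was tested directly, over 78 libraries. Of 13787 genes 1 was called lower (0.00725%) and 0 higher in edgeR, and 1278 had an unadjusted p under 0.05. For ENSRNOG00000002180 the log2 difference was -1.03 ± 0.27 (SE; adjusted p = 0.418 in edgeR), so its absence from the other metals' calls was not shown to be particular to Ta. The gene called, ENSRNOG00000019823, was named after its value was seen. Its level was 0.29 to 0.8 CPM in the 8 Ta libraries of 6 months. At 1 month it was 59.4 and 41.6 CPM in Ta replicates 2 and 4, and 0.157 to 1.09 CPM in the other 5. The difference was -4.41 ± 0.69 (SE, edgeR adjusted p = 2.20e-04). Without both of those libraries no gene was called, and the difference of this gene was 0.37 (edgeR adjusted p = 0.824). In limma voom with sample quality weights it was -1.73 and did not pass (adjusted p = 0.471). A single high library of this gene was also seen outside these groups. With P at 12 months replicate 3 had 27.4 CPM, against 0.239 to 0.534 CPM in the others. The filter on low counts kept the gene out of the fit of Ta alone.

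The metals differed in where the Ta genes stood at 3 months, as a description. The genes were chosen for a gap between 1 and 6 months in Ta, so the shares with Ta and with other metals are not on equal terms. Of the genes that fell in Ta, 7.98% lay nearer to the metal's own 6-month mean at that time with Ta, 18.4% with Ni, 16.1% with Co, 50.7% with P and 68.7% with DU. Of the genes that rose, the shares were 6.56% with Ta, 21.1% with Ni, 14.5% with Co, 31.6% with P and 46.9% with DU. With DU, replicate 2 of 3 months stood apart, with a median correlation of 0.524 to its group. Without it the DU shares were 64.4% and 65.8%. With all libraries, the falls past the 1-month mean at 3 months, opposite to the Ta change, were 51.6% with Ta and 81.3% with Ni. They were 58.8% with Co, 13.1% with P and 16.8% with DU. For the rises these shares were 63%, 86.1%, 57.7%, 48.3% and 35.2% in the same order. Averaged over the genes that fell, log2 CPM was 3.48 ± 0.36 with Ta at 3 months, against 3.39 ± 0.35 with Ni, 3.73 ± 0.32 with Co, 3.04 ± 0.19 with P and 2.97 ± 0.30 with DU (SD, n = 8 each). Without replicate 2 the DU value was 3.06 ± 0.17 (SD, n = 7). By 12 months the shares nearer to the metal's own 6-month mean were 84.5% with Ta, 83.9% with Co, 85.5% with P and 73.5% with DU for the falls. For the rises they were 77.7%, 88.3%, 87.1% and 61.4%. With DU, replicates 5 and 6 of 12 months had median correlations of 0.896 and 0.776 to their group, against 0.962 to 0.969 in the others. The 12-month DU shares were not computed without them. These differences between metals were not tested.

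**Figure D5:**
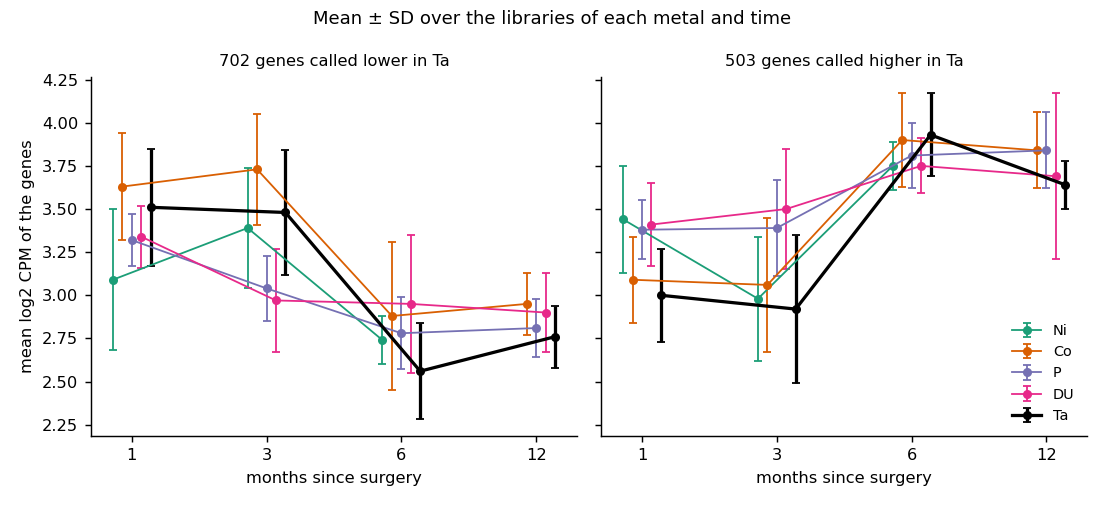
Mean log2 CPM of the 702 genes called lower (left) and the 503 called higher (right) in Ta at 6 months, by months since surgery, as mean ± SD over the libraries of each metal (7 or 8). At 6 months the means run from 2.56 to 2.95 on the left and from 3.75 to 3.93 on the right, while at 3 months P and DU stand lower than Ta, Ni and Co on the left and higher on the right.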

How the data were processed

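The deposited table holds raw counts for each gene, whole numbers that were not normalized, per the file headers and the values. Per the submitters' processing notes, the authors used HISAT2 2.0.5, featureCounts 1.5.0-p3 and the rat build Rnor_6.0. The annotation release and strand setting are not given in the sources used here. Genes that overlap, lie antisense or are nearly identical may thus share reads. Per the labels' protocols, a stranded total RNA kit was used on 1000 ng per library and reads were pairs of 100 bases, 10 libraries to a lane; the lane of a library is not given there.

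Each metal's 6-month and 1-month libraries were fitted alone in edgeR 4.0.16 (filterByExpr, TMM, robust glmQLFit, glmQLFTest; R 4.3.3, limma 3.58.1), with p-values adjusted by Benjamini-Hochberg over all tested genes and called under 0.05. The difference of Ta from the other metals was a contrast in 1 fit. CPM used TMM factors over all libraries of a metal, and log2 values a prior count of 2. No pair of Ta libraries in a group matched within sampling noise (lowest chi-square per degree of freedom 10.8).

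The genes to be named had to be called, to average 1 CPM or more in a group and to have 75% of libraries beyond the other group's median; 501 of 503 rises and 697 of 702 falls met this. The rule also asked for a gene name and took more genes and lists; as the identifiers had no names, the first gene of each kind is given and the lists, markers and sequences were not used. The comparison, the lists and the rules were chosen with earlier results of these data known. Alternatives were DESeq2 1.42.0, RLE factors, no low-count filter, weighted voom, larger models, a replicate block and leaving libraries out; those without TMM factors, without pairs of libraries, and the other call lists were chosen after seeing the data.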

Additional observations from a re-analysis of the deposited data

Results flagged for a closer look

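Among 46 sets of 7 or 8 Ta libraries checked for a value far from the rest, 3 stood out, where chance gives about 1 in 20. Averaged over the rising genes, log2 CPM was 2.43 in 1-month replicate 8, below the 3.01 to 3.22 of the other 6 libraries. The same measure was 3.32 in 12-month replicate 3, the lowest of 8, with 3.61 to 3.76 in the others. ENSRNOG00000004635 reached 1.35 CPM in 12-month replicate 7, against 0 to 0.318 CPM in the other 7. The change of ENSRNOG00000019823 differed between Ta and the other metals by -4.41 on the log2 scale in edgeR's test of that difference, which rests on Ta replicates 2 and 4 of 1 month. Without those libraries it was 0.37.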

How the results depend on the processing

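All 1205 genes kept their sign in each alternative fit of the Ta comparison that tested them. Their choice in these same libraries largely fixes this. The number called did not stay. It was 2129 with DESeq2 (1079 higher, 1050 lower), 2211 with weighted voom, 1838 with all 31 Ta libraries in 1 model, 653 without 6-month replicates 4 and 7 and 440 without TMM factors, against 1205. RLE factors gave 1204, no filter 857, and leaving out 1 library 569 to 2238. DESeq2 called 1066 genes with Ni, 2475 with Co and 353 with DU. Leaving out 1 library gave 182 to 601 calls with Ni, 5 to 1692 with Co, 928 to 1583 with P and 89 to 171 with DU. For the difference of Ta from the other metals DESeq2 called 4 genes, weighted voom 2 others (ENSRNOG00000019823 had -1.73 and an adjusted p of 0.471 there), and the fit without Ta 1-month replicates 2 and 4 called 0; leaving out 1 Ta library gave 1 throughout. In that fit without both libraries ENSRNOG00000019823 reversed, to 0.37. The shares of Ta falls with the same direction ran over 6 other call lists from 90.8% to 99.7% with Ni, 87% to 96% with Co, 96.4% to 98.6% with P and 88.8% to 96.5% with DU; those of the rises with Ni ran from 62.8% to 87.7%. Except where stated, the cause was not tested.

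The replicate numbers of 6 and 1 month did not pair the Ta libraries: over 7 pairs the correlation of deviations ran from -0.37 to 0.21, 1 was over 0.1, and 0 libraries correlated best with their own number. With the replicate number as a block 0 genes were called in Ta, with 2440 at an unadjusted p under 0.05. The block gave 66 calls with Ni, 1 with Co, 847 with P and 18 with DU. These fits kept only numbers present at both times, so 6-month replicate 7 of Ta and 1-month replicate 8 of Co were left out. Leaving out the same library without a block gave 761 calls in Ta and 1352 with Co.

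Low genes limit the precision: the largest fall had 5 to 36 counts per library at 6 months and the largest rise 8 to 29 at 1 month, and the p-values carry no check on cohort.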

Other observations

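Single libraries held bursts of genes that the group did not share. Counting genes at 10 CPM or more and at least 10 times the median of their group, Ta libraries had 2 to 13 at 6 months and 3 to 17 at 1 month. The highest counts were 13 in 6-month replicate 6 and 17 in 1-month replicate 5. In these libraries 6 and 10 of the genes were at least 10 times over every other library of the group, against 0 to 3 in the other 6-month libraries and 0 to 2 in the other 1-month libraries. What these genes are was not examined, since the identifiers carry no names.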
